A study of Mus musculus with 12 samples.

Results

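The 47 genes described here are genes that type I interferon switches on. They were given as a list of symbols and matched by name to the deposited expression table, where each symbol belonged to 1 of 49585 genes. All 47 held enough counts for a test, among 18451 genes tested in all. They were measured in RNA of nuclei from the spinal cord of C57BL/6 mice in 4 groups of 3 libraries each: sham-operated mice, whose labels carry day 7, and mice killed 3, 7 or 14 days after a spinal cord injury. No other allele, agent or treatment is given for any group, and age and sex are not given. Each library pooled cord tissue around the injury site from 3 animals, and nuclei that carried green fluorescent protein (GFP) were pulled out on magnetic beads by an antibody to it. The labels call these nuclei microglia-specific, and what drove the GFP is not given in the sources used here. Replicates are numbered 2, 3 and 4 in sham, 1, 2 and 3 at 3 days, 1, 3 and 4 at 7 days and 1, 2 and 3 at 14 days, and values per library are listed in that order. Because each library already averages 3 animals, p-values measure only the spread between such pools.

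Type I interferons are secreted proteins that bind the receptor made of IFNAR1 and IFNAR2. The kinases JAK1 and TYK2 then phosphorylate STAT proteins, STAT2 among them, which join IRF9 and bind a short DNA element, the interferon-stimulated response element (ISRE), near the start of target genes. The products of these genes degrade viral RNA, block entry or budding of virus, sense foreign nucleic acid, or attach and remove the ubiquitin-like protein ISG15. Microglia, the resident macrophages of the cord, and macrophages that enter from blood both carry the receptor and can run this program.

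Total counts ranged from 4003480 to 10670804 per library. The nuclei carried microglial markers in every library: 6 marker genes (P2ry12, Tmem119, Cx3cr1, Sall1, Siglech, Csf1r) summed to 3324 to 4332 CPM (counts scaled to the library total) in sham, 2280 to 2738 at 3 days, 3156 to 3691 at 7 days and 2625 to 3226 at 14 days. Of these 6 genes, 2 were called lower than sham at 3 days and 3 at 14 days. The 9 markers of monocyte-derived macrophages summed to 175 to 355 CPM in sham, 1208 to 1711 at 3 days, 332 to 695 at 7 days and 858 to 979 at 14 days, with none at 0 over a group and 3 of the 7 tested called higher at 3 days. Against sham 2 of these 7 were called higher at 7 days, and 2 were called higher and 1 lower at 14 days. The 7 neutrophil markers summed to 4.25 to 11.4 CPM in all libraries, with Ly6g at 0 in sham, and the 7 markers of T and NK cells to 0.23 to 3.0 CPM. Astrocyte markers set sham replicate 4 apart, at 4441 CPM against 484 and 1477 in the other sham libraries, and 2 of these 6 markers were called higher than sham at 3 days and 3 at 14 days. The 5 neuron markers summed to 752 to 2183 CPM in sham, 434 to 526 at 3 days, 570 to 623 at 7 days and 714 to 989 at 14 days, with 4 called lower at 3 days, 3 at 7 days and 1 at 14 days. The part of these cell types in the changes described next was not tested. In such pooled samples, fewer cells of a type and less RNA per cell cannot be told apart.

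Because the ISRE is where the pathway acts on DNA, the promoters of the members were read first. RefSeq promoters of build GRCm38.p6 (250 bases before to 50 bases after the start) were matched for 35 members. The core GAAANNGAAA, searched on both strands and with overlapping matches counted apart, was present in 16 of these 35 members (45.7%). It was present in 1079 of 27025 genes with such a promoter (3.99%). The stretches below are from genes whose levels are described next. They run 5′ to 3′ on the strand of the gene, and capitals mark the core, which reads TTTCNNTTTC where it lies on the other strand.
Isg15 (chr4:156200865-156200906, minus strand): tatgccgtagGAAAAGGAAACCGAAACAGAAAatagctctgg
Ifit1, distal (chr19:34640775-34640804, plus strand): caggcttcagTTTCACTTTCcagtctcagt
Ifit1, proximal (chr19:34640794-34640823, plus strand): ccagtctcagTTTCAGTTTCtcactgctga
Ifit3, distal (chr19:34583363-34583392, plus strand): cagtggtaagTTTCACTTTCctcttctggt
Ifit3, proximal (chr19:34583397-34583426, plus strand): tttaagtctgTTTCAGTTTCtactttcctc
Rsad2 (chr12:26456553-26456582, minus strand): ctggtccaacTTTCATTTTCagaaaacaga
Stat2 (chr10:128270266-128270295, plus strand): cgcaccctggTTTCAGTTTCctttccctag
Oas1a (chr5:120907526-120907555, minus strand): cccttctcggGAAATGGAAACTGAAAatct
Oas1g (chr5:120887614-120887641, minus strand): cccttctcggGAAATGGAAACTGAAAat
Trim30a (chr7:104465210-104465239, minus strand): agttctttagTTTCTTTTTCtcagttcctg
Trim30d (chr7:104507871-104507900, minus strand): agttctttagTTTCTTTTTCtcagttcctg

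The stretch of Isg15 held 3 overlapping cores in a row and those of Oas1a and Oas1g held 2 each. The Oas1a and Oas1g promoters shared an unbroken run of 73 of 300 bases, and those of Trim30a and Trim30d a run of 118. A second motif, TTCNNNGAA, the core of the gamma-activated sequence known from interferon gamma targets, was present in 8 of the 35 members (22.9%) and in 9.55% of all genes with a promoter. It reads the same on both strands. Such matches describe letters in a window, not binding.

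At 3 days after injury, 43 of the 47 genes were higher than in sham and none was lower, in a comparison where 10.9% of all tested genes were called higher. Calls are at a threshold of 0.05 on p-values from the quasi-likelihood test of edgeR, adjusted over all tested genes by the Benjamini-Hochberg method. The median log2 fold change of the 47 genes was 1.89, a 3.71-fold difference, and it was -0.03 over all tested genes. The 3 injured libraries all lay above the 3 sham libraries for the same number of genes, 43, against 18.7% of all tested genes. The size of the rise ranged from 0.61 on the log2 scale for Trim30a to 4.61 for Helz2 among the genes called. The 4 genes not called were Trim30d, Samd9l, Phf11b and Nmi. The count of called genes was 37 without 3-day replicate 3, when Dtx3l, Herc6, Isg15, Parp12, Tor3a and Trim30a were no longer called, and 41 to 43 without any other library. That replicate was the highest of the 3-day libraries for 40 of the 47 genes. Leaving it out is the change that moved the 3-day count most among the alternatives tried. The heat map by library shows the rise in all 3 libraries and its range between genes.

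**Figure D1:**
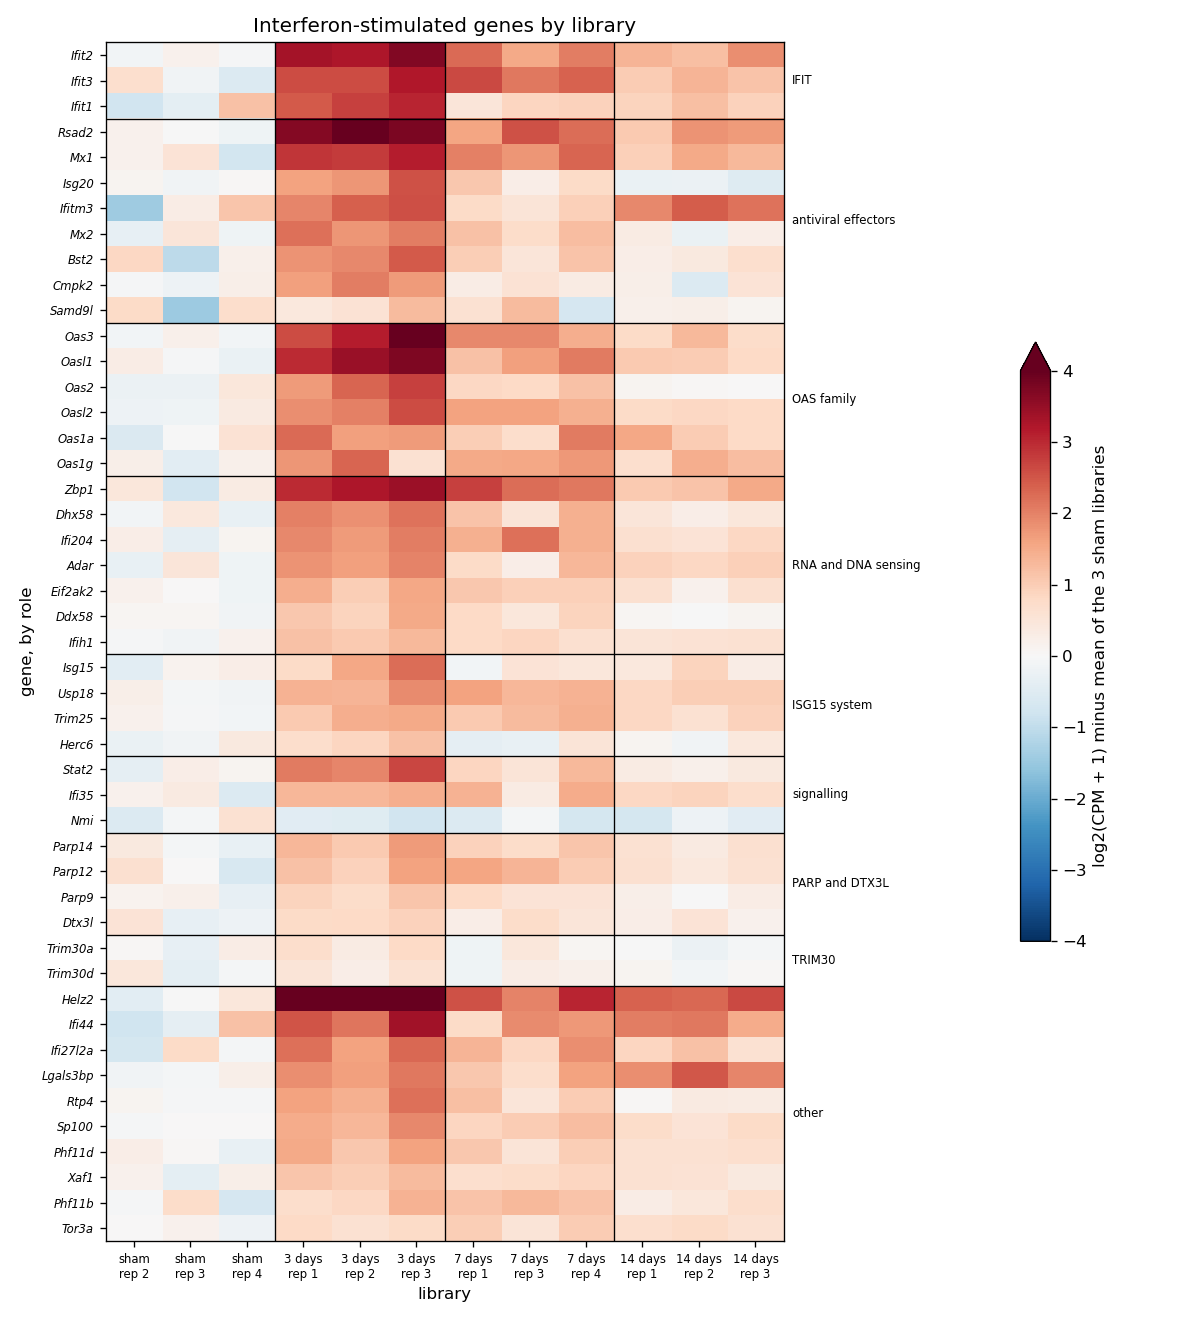
Heat map of 47 interferon-stimulated genes (rows, grouped by role) in 12 libraries (columns), coloured by log2(CPM + 1) minus the mean of the 3 sham libraries, with the scale ending at 4 in either direction. The 3-day columns are the reddest, 43 genes being called higher than sham there. Nmi is the row with its highest mean in sham, and its injured libraries overlap the sham libraries.

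At 7 days 32 of the 47 genes were higher than in sham and none was lower, where 4.61% of all tested genes were called higher. The median log2 fold change was 1.00, against 0.01 over all tested genes. The 3 injured libraries lay above the sham libraries for 34 genes, against 12.1% of all tested genes. Leaving out 7-day replicate 4 gave 18 called genes in place of 32, and leaving out 7-day replicate 1 gave 21. In a fit of only the groups compared it was 12: Rsad2, Ifit2, Ifit3, Mx1, Oas1g, Oasl2, Usp18, Zbp1, Trim25, Ifi204, Sp100 and Helz2, which were called under every alternative tried.

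At 14 days 16 of the 47 genes were still called higher than in sham, where 5.02% of all tested genes were called higher, and none was lower. The median log2 fold change was 0.65, against -0.05 over all tested genes. The injured libraries lay above the sham libraries for 26 genes, against 15.6% of all tested genes, and below them for 1, Isg20, against 14.2% of all tested genes. The count of 16 was 8 without 14-day replicate 1, 8 without replicate 2 and 6 without replicate 3, and it was 8 in a fit of only the groups compared. Rsad2, Ifit2, Lgals3bp and Helz2 were called under every alternative tried.

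The fall from the 3-day level was tested directly. From 3 to 7 days 22 genes fell and none rose, where 7.52% of all tested genes were called lower, with a median log2 change of -0.64 against 0.01 over all tested genes. Leaving out 3-day replicate 3 gave 8 called genes, 7-day replicate 1 gave 11 and 7-day replicate 3 gave 9. It was 13 when the summed level of 4 Y-linked genes, which differed between pools of a group, was added as a covariate after those levels had been seen. Rsad2, Ifit1, Ifit2, Oas2, Oasl1, Stat2, Cmpk2 and Helz2 were called lower under every alternative tried. From 3 to 14 days 28 genes fell and none rose, where 5.14% of all tested genes were called lower. The count was 18 without 14-day replicate 2 and 41 in a fit of only the groups compared. From 7 to 14 days 3 genes fell (Ifit3, Zbp1 and Ifi204) and none rose, where 0.835% of all tested genes were called lower and 2.19% in either direction. In that last comparison 23 of the 47 genes had an unadjusted p under 0.05. Its count of genes called in either direction was 0 without 7-day replicate 1 or 3, without any 1 of the 14-day libraries or without 3-day replicate 1, and it was 1 without 3-day replicate 2. It was 11 without sham replicate 2 and 12 without sham replicate 4, which enter only through the estimate of the spread, the scaling and the genes tested. It was also 13 with no filter on low counts and 13 in a fit of only the groups compared, where Ifitm3 and Lgals3bp were among the added genes. The comparisons against sham share the 3 sham libraries, so their fold changes are set side by side in the plot of changes and are not counted as independent.

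**Figure D2:**
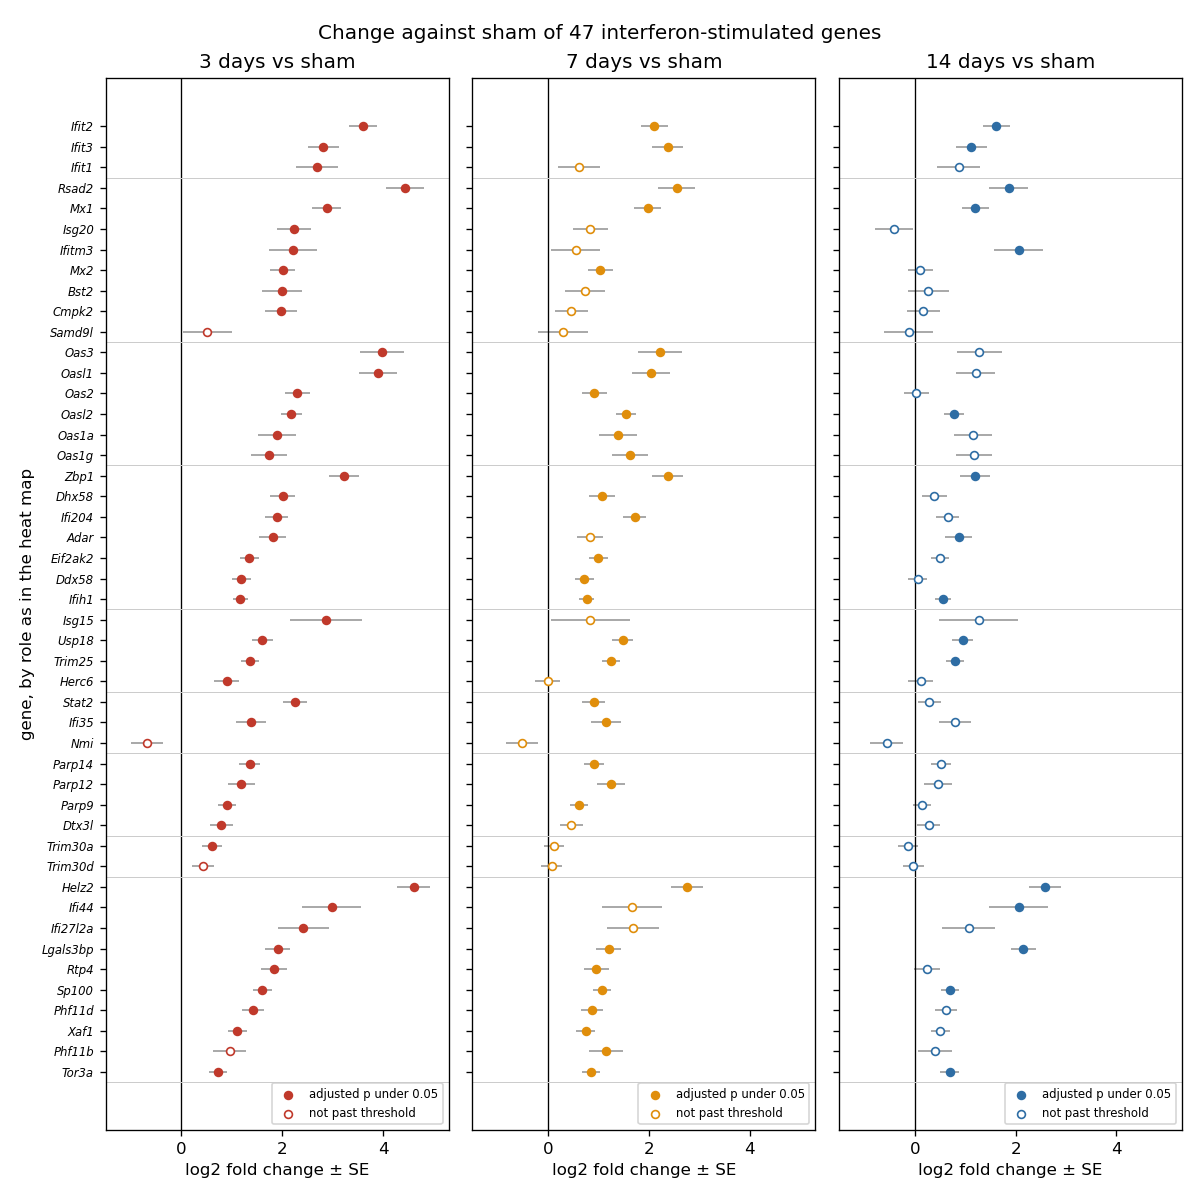
Log2 fold change ± SE against sham (x axis) of each of 47 genes (y axis, in the order of the heat map) at 3, 7 and 14 days. Filled points passed the threshold, which 43, 32 and 16 genes did, open points did not, and Helz2 lies farthest to the right in each panel.

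By their calls against sham, 13 of the 47 genes were called at all 3 times (Rsad2, Ifit2, Ifit3, Mx1, Oasl2, Ifih1, Usp18, Zbp1, Trim25, Sp100, Lgals3bp, Tor3a and Helz2). Another 18 were called at 3 and 7 but not 14 days, among them Stat2, Mx2, Oas2, Oas3, Oasl1 and the sensors Ddx58 and Dhx58, and 13 of these 18 were also called lower at 14 than at 3 days. A further 9 were called at 3 days only (Ifit1, Isg15, Isg20, Herc6, Trim30a, Dtx3l, Ifi27l2a, Bst2 and Cmpk2), and 6 of them were called lower at 7 than at 3 days. Some of these 9 were called later when 1 sham library was left out. Ifit1 was called at 7 and 14 days without sham replicate 4, and Ifi27l2a at both times without sham replicate 3. Bst2 and Dtx3l were called at 7 days without sham replicate 2. Ifi44, Ifitm3 and Adar were called at 3 and 14 but not 7 days, Phf11b at 7 days, and Trim30d, Samd9l and Nmi at no time. A call at some time and none at another does not show that the times differ, which the direct tests above address. The mean was highest at 3 days for 42 genes, at 7 days for Parp12, Phf11b and Tor3a, at 14 days for Lgals3bp and in sham for Nmi.

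The 3 IFIT genes lie within 200 kb of each other on chromosome 19 (Ifit2 at chr19:34550694-34576419, Ifit3 at chr19:34583531-34588731 and Ifit1 at chr19:34640871-34650009, GRCm38). They encode proteins that bind viral RNA and block its translation. All 3 were higher at 3 days. Ifit2 (ENSMUSG00000045932) stood at 6.63, 8.42 and 6.97 CPM in the sham libraries and at 81.8, 77.8 and 108 CPM at 3 days. It stood at 39.2, 22.6 and 33 CPM at 7 days and 20.4, 18.2 and 29.3 CPM at 14 days. No injured library overlapped the sham range at any time, and every 3-day library lay above every later one. Against sham it rose by 3.61 ± 0.28, 2.11 ± 0.27 and 1.62 ± 0.27 on the log2 scale at the 3 times (edgeR adjusted p = 1.97e-06, 0.000415 and 0.0021). Ifit3 (ENSMUSG00000074896) stood at 14.2, 7.74 and 5.57 CPM in sham and 56.7, 56.9 and 86.3 CPM at 3 days. It was then 58.4, 40.4 and 48 CPM at 7 days and 18.5, 23.3 and 20 CPM at 14 days, so that the 7-day libraries overlapped the 3-day range and the 14-day libraries lay below both. Its log2 change was 2.82 ± 0.31 at 3 days and 2.37 ± 0.31 at 7 days against sham (edgeR adjusted p = 3.32e-05 and 0.000416), and it fell by 1.25 from 7 to 14 days (edgeR adjusted p = 0.0399). That fall was no longer called without 14-day replicate 1, 2 or 3, 3-day replicate 1 or 2, or 7-day replicate 1, 3 or 4 (edgeR adjusted p = 0.0616 to 0.193). The call of Ifit3 against sham at 14 days ended without 14-day replicate 1, 2 or 3, or sham replicate 3 or 4 (edgeR adjusted p = 0.0558 to 0.103). Ifit1 (ENSMUSG00000034459) differed from its neighbours in the libraries after 3 days. Its level was 3.62, 5.01 and 16.7 CPM in sham, 41.9, 51.1 and 63.6 at 3 days, 10, 13.2 and 13.9 at 7 days and 13.7, 17.2 and 13.8 at 14 days. The later libraries overlapped the sham range only through sham replicate 4. Ifit1 rose by 2.69 ± 0.42 on the log2 scale at 3 days (edgeR adjusted p = 0.000575) and fell by 2.08 from 3 to 7 days (edgeR adjusted p = 0.00564). The rise was 3.59 without sham replicate 4. In that fit Ifit1 was also called higher than sham at 7 and 14 days, so its contrast with Ifit2 and Ifit3 rests on that library. How the authors' counting treated reads that match several IFIT genes is not given in the sources used here, so the split between them is uncertain.

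Of 8 antiviral effector genes, 7 rose at 3 days, 3 at 7 days and 3 at 14 days, and 7, 2 and 1 of these calls held whichever single library was left out. Rsad2 (ENSMUSG00000020641, chr12:26442746-26456452, minus strand) encodes viperin, which makes a nucleotide that ends viral RNA chains. Its level was 2.71, 2.28 and 1.95 CPM in sham and 40.8, 69.3 and 43.7 CPM at 3 days, so that every 3-day library lay far above every sham library. It was 8.77, 18.4 and 14.5 CPM at 7 days and 5.85, 10.5 and 9.76 CPM at 14 days, still above the sham range in all 6 libraries. Rsad2 rose 21.6-fold at 3 days, 5.87-fold at 7 days and 3.62-fold at 14 days, or by 4.43 ± 0.38, 2.55 ± 0.37 and 1.86 ± 0.38 on the log2 scale (edgeR adjusted p = 3.96e-06, 0.00106 and 0.00753). Cmpk2, a kinase that supplies the nucleotide on which viperin acts, starts 12.8 kb from Rsad2 and runs the other way. Cmpk2 stood at 5.43, 4.78 and 6.69 CPM in sham, 19.7, 26 and 20.6 CPM at 3 days, 7.1, 8.77 and 7.33 CPM at 7 days and 6.75, 3.49 and 8.65 CPM at 14 days. Its 14-day libraries overlapped the sham libraries, and its 3-day libraries lay above all others. It rose by 1.98 ± 0.32 at 3 days (edgeR adjusted p = 0.000772) and fell by 1.52 from 3 to 7 days (edgeR adjusted p = 0.00736).

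Mx1 (ENSMUSG00000000386), a gene of the Mx family of GTPases, had the highest level per gene length of the antiviral effectors at 3 days. Whether its transcript makes an active antiviral protein in these mice was not tested. Mx1 stood at 35.6, 46.7 and 18.4 CPM in sham and 236, 224 and 285 CPM at 3 days. It stood at 129, 109 and 161 CPM at 7 days and 61.7, 92.2 and 78.8 CPM at 14 days, a stepwise order in which no injured group overlapped another. Mx1 rose by 2.88 ± 0.28, 1.98 ± 0.27 and 1.20 ± 0.27 in turn (edgeR adjusted p = 1.35e-05, 0.00077 and 0.0126), the last call ending without 14-day replicate 2 (edgeR adjusted p = 0.0572). Its neighbour Mx2, annotated as a polymorphic pseudogene, had a log2 fold change of 2.01 ± 0.25 at 3 days (edgeR adjusted p = 9.68e-05) and overlapped the sham values at 14 days, with 38, 24.7 and 35.9 CPM against 23.7, 41.9 and 26.5. Isg20, an exonuclease that degrades viral RNA, stood at 5.28, 4.32 and 5.02 CPM in sham, 16.8, 19 and 33 CPM at 3 days, 11.5, 5.97 and 8.92 CPM at 7 days and 3.9, 3.96 and 3.11 CPM at 14 days. The 3-day libraries lay above all others and the 14-day libraries below all others. It rose by 2.24 ± 0.34 at 3 days (edgeR adjusted p = 0.00049), and fell by 1.4 from 3 to 7 days (edgeR adjusted p = 0.0132), the fall not being called without 3-day replicate 3, or 7-day replicate 3 (edgeR adjusted p = 0.0593 to 0.113). Bst2, which tethers budding virus to the cell and holds 2 overlapping ISRE cores in its promoter, rose by 2.00 ± 0.40 at 3 days (edgeR adjusted p = 0.00311). Samd9l, a restraint on growth of blood cells and on viruses, had overlapping groups at all times, with 49.6, 9.79 and 46.8 CPM in sham and 39, 43.5 and 69.6 at 3 days and a log2 change that measured 0.52 ± 0.49 (edgeR adjusted p = 0.483).

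Ifitm3, a membrane protein that stops viruses from fusing in endosomes, followed another order. Its level was 1.36, 6.83 and 12.8 CPM in sham and 23.6, 32.2 and 36.5 CPM at 3 days. It was 9.81, 8.07 and 11.2 CPM at 7 days and 23, 33.3 and 27.5 CPM at 14 days. The 7-day libraries lay within the sham range, and the 14-day libraries overlapped the 3-day ones and lay above every 7-day library. Ifitm3 rose by 2.21 ± 0.48 at 3 days and 2.06 ± 0.48 at 14 days (edgeR adjusted p = 0.00552 and 0.0151), and its value at 7 days was 0.55 ± 0.49 (edgeR adjusted p = 0.503). From 7 to 14 days its log2 change was 1.52 ± 0.46 (edgeR adjusted p = 0.0929), which did not pass the threshold, though it did without sham replicate 2 or 4 (edgeR adjusted p = 0.0063 to 0.011). The call at 14 days ended without 14-day replicate 2 (edgeR adjusted p = 0.0576). Without sham replicate 2 the value at 7 days was -0.01, and without sham replicate 4 the values were 2.99, 1.34 and 2.85 at 3, 7 and 14 days. Ifi44, a cytoplasmic protein of little known function, was likewise called at 3 and 14 days, with 0.904, 1.59 and 6.41 CPM in sham, 17.9, 13.7 and 33 at 3 days, 4.59, 11.2 and 10.1 at 7 days and 12.8, 13.3 and 8.21 at 14 days. Its log2 fold change was 2.98 ± 0.58 at 3 days, 1.67 ± 0.59 at 7 days and 2.06 ± 0.58 at 14 days (edgeR adjusted p = 0.00269, 0.0856 and 0.0375), and the call at 14 days ended without 14-day replicate 1, 2 or 3, 3-day replicate 1, or sham replicate 2 or 3 (edgeR adjusted p = 0.0518 to 0.114). At 7 days Ifi44 was called higher without sham replicate 4 (edgeR adjusted p = 0.00664). In that fit its values were 4.13, 2.84 and 3.22 at 3, 7 and 14 days. Unlike those of Ifitm3, the 7-day libraries of Ifi44 overlapped the 14-day libraries. The markers of endothelial cells were high at 3 and 14 days. All 7 (Cldn5, Kdr, Pecam1, Cdh5, Tek, Flt1 and Ly6c1) were called higher than sham at 3 days, none at 7 days and 4 at 14 days, and 6 were called higher at 14 than at 7 days. Their sums were 37.2 to 117 CPM in sham, 204 to 450 at 3 days, 45.2 to 58.1 at 7 days and 325 to 332 at 14 days, with no marker at 0 over any group. The 6 markers of fibroblasts and pericytes summed to 31.3 to 175, 84.7 to 131, 19.4 to 85.0 and 181 to 211 CPM in the same order. In sham, replicate 4 was the highest library for both marker lists and for both genes. The part of these cells in the levels of Ifitm3 and Ifi44 was not tested.

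**Figure D3:**
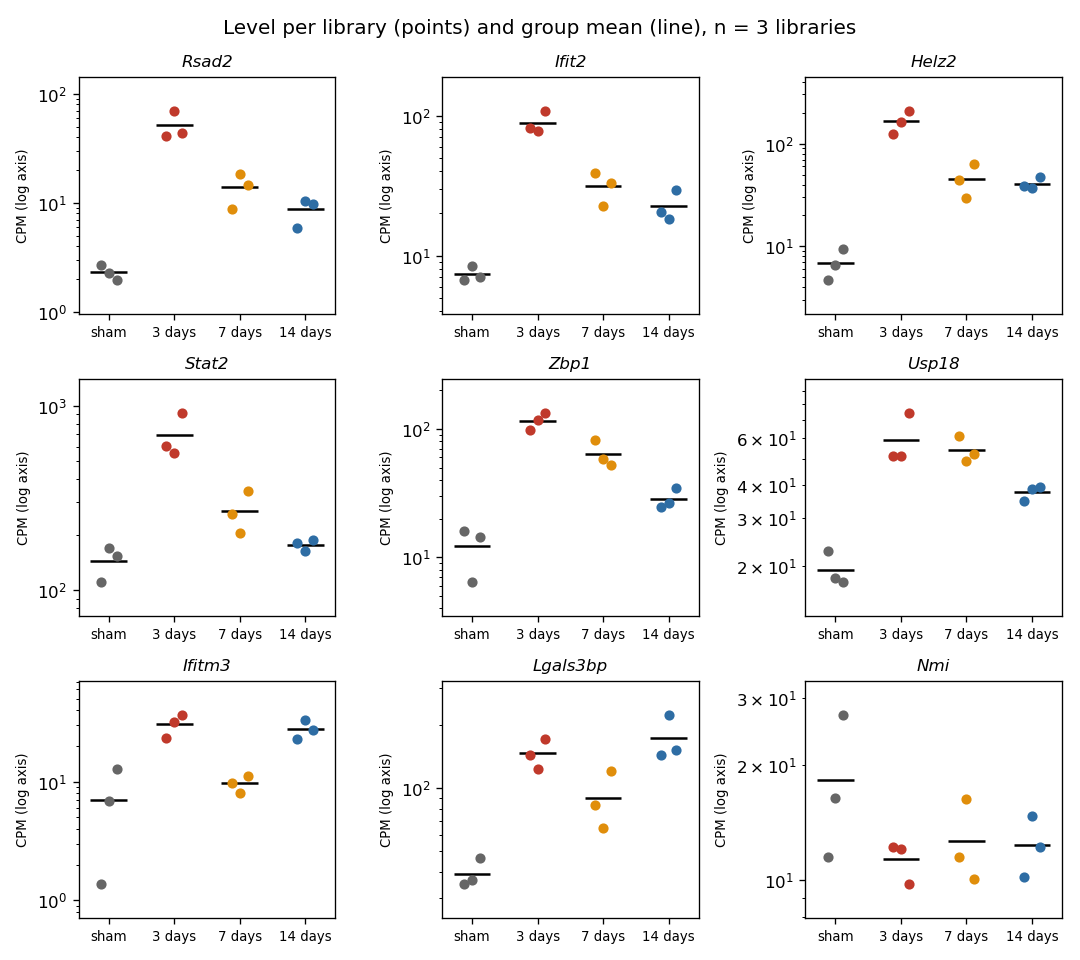
Level of 9 of the genes in CPM (y axes, logarithmic and scaled to each gene) in each library (points) by group (x axes), with group means as lines, n = 3 libraries. Rsad2, Ifit2, Helz2 and Stat2 peak at 3 days, the 7-day points of Usp18 overlap its 3-day points, Ifitm3 is high at 3 and 14 days, and Nmi overlaps sham at every time.

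All 6 genes of the OAS family rose at 3 days and at 7 days, and 1 (Oasl2) was called at 14 days. At 14 days the injured libraries of 5 of the 6 lay above every sham library, against 15.6% of all tested genes. The median log2 fold change of the family was then 1.16, and 5 had an unadjusted edgeR p under 0.05. Oas1a and Oas1g were called at 14 days by DESeq2 and without sham replicate 4. The 3-day calls held whichever single library was left out, as did those at 7 days for all but Oas1a and Oas2. The family makes oligoadenylates that activate RNase L, which cuts RNA. Oas1a, Oas1g, Oas2 and Oas3 lie together on chromosome 5 and Oasl1 and Oasl2 farther along it. Oasl2 (ENSMUSG00000029561) had the highest mean level per gene length of the family over the 12 libraries. It stood at 96.5, 99.2 and 142 CPM in sham and 406, 447 and 675 CPM at 3 days. It stood at 343, 341 and 297 CPM at 7 days and 188, 198 and 192 CPM at 14 days, and no group overlapped another. Oasl2 rose by 2.18 ± 0.21, 1.54 ± 0.20 and 0.78 ± 0.20 (edgeR adjusted p = 1.13e-05, 0.000542 and 0.0242), the call at 14 days ending without 14-day replicate 1, 2 or 3, or sham replicate 2 or 3 (edgeR adjusted p = 0.0627 to 0.0789). Oasl1 (ENSMUSG00000041827), which lacks synthetase activity and holds back translation of Irf7, was much lower in sham. Its level was 2.56, 1.82 and 1.39 CPM there, 22, 30.4 and 37.5 CPM at 3 days, 5.43, 8.07 and 11.1 CPM at 7 days and 4.95, 4.89 and 3.99 CPM at 14 days. Every injured library lay above every sham library. It rose by 3.90 ± 0.37 at 3 days, a 14.9-fold difference (edgeR adjusted p = 1.08e-05), fell by 1.86 from 3 to 7 days (edgeR adjusted p = 0.00303), and by 2.7 from 3 to 14 days (edgeR adjusted p = 0.000266).

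Oas3 had the lowest sham level per gene length of all 47 genes and a 3-day rise of 3.98 ± 0.43, or 15.8-fold (edgeR adjusted p = 3.13e-05). Its libraries held 1.66, 2.28 and 1.67 CPM in sham and 16.5, 24.3 and 47.3 CPM at 3 days, the spread at 3 days being wide. Oas2 reached 271, 419 and 563 CPM at 3 days from 70.8, 71 and 113 CPM in sham and returned to 90.4, 85.7 and 84.1 CPM at 14 days, within the sham range. It rose by 2.30 ± 0.25 at 3 days (edgeR adjusted p = 3.33e-05) and fell by 2.27 from 3 to 14 days (edgeR adjusted p = 0.000149). The closely related Oas1a and Oas1g parted in their 3-day libraries. Oas1a stood at 85.7, 55.4 and 58.5 CPM there, against 11.2, 17.1 and 25.9 CPM in sham, and Oas1g at 57.1, 85.5 and 25.6 CPM, against 19.1, 11.8 and 19 CPM in sham. Replicate 3 of the 3-day group, which was highest for 40 of the 47 genes, was the lowest for Oas1g. Both were called at 3 days, with log2 fold changes of 1.90 ± 0.38 and 1.74 ± 0.36 (edgeR adjusted p = 0.00333 and 0.00384). How reads that match both copies were counted is not given in the sources used here, so the split between them is uncertain.

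All 7 genes of RNA and DNA sensing rose at 3 days, 6 at 7 days and 3 at 14 days, and all 7 were called lower at 14 than at 3 days. All 7 calls at 3 days and 4 at 7 days held whichever single library was left out, and none at 14 days did. Among the 14-day calls, that of Ifih1 ended without 14-day replicate 1, 2 or 3, or sham replicate 2 or 3 (edgeR adjusted p = 0.0578 to 0.117) and that of Adar without 14-day replicate 1, 2 or 3, 3-day replicate 1, 2 or 3, 7-day replicate 1, or sham replicate 2 or 4 (edgeR adjusted p = 0.0552 to 0.13). Zbp1 (ENSMUSG00000027514), a sensor of nucleic acid in the Z form that can start cell death, had the smallest p at 3 days of this group. It stood at 16, 6.37 and 14.5 CPM in sham, 97.7, 117 and 133 CPM at 3 days, 81.8, 58.3 and 52.7 CPM at 7 days and 24.5, 26.3 and 34.4 CPM at 14 days. The groups followed each other downward from 3 days with no overlap. Zbp1 rose by 3.23 ± 0.30 at 3 days, 2.37 ± 0.30 at 7 days and 1.19 ± 0.30 at 14 days (edgeR adjusted p = 1.07e-05, 0.000328 and 0.0196). Zbp1 was the only one of the 47 genes to be called lower both from 3 to 7 days and from 7 to 14 days, by 0.85 and 1.18 (edgeR adjusted p = 0.0491 and 0.0434). Both calls lay close to the threshold: the first ended without 14-day replicate 1, 2 or 3, 3-day replicate 1, 2 or 3, or 7-day replicate 1, 3 or 4 (edgeR adjusted p = 0.0595 to 0.203), and the second without 14-day replicate 1, 2 or 3, 3-day replicate 1, 2 or 3, or 7-day replicate 1, 3 or 4 (edgeR adjusted p = 0.0534 to 0.211). The call at 14 days ended without 14-day replicate 3 (edgeR adjusted p = 0.0938). Ifi204, a DNA sensor related to human IFI16, stood at 67.1, 42.6 and 59.1 CPM in sham, 211, 182 and 234 CPM at 3 days, 151, 258 and 150 CPM at 7 days and 86.8, 80.8 and 98.1 CPM at 14 days. Its 7-day level overlapped the 3-day level, and 7-day replicate 3 was the highest of all 12 libraries. It rose by 1.89 ± 0.23 at 3 days and 1.72 ± 0.23 at 7 days (edgeR adjusted p = 8.16e-05 and 0.000563) and fell by 1.07 from 7 to 14 days (edgeR adjusted p = 0.0264). That fall was no longer called without 14-day replicate 1, 2 or 3, 3-day replicate 1, or 7-day replicate 1 or 3 (edgeR adjusted p = 0.0505 to 0.137).

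Eif2ak2 encodes PKR, the kinase that stops translation when it meets double-stranded RNA, and had the highest sham level per gene length of the sensing genes. It stood at 130, 116 and 102 CPM in sham, 320, 228 and 341 at 3 days, 245, 226 and 226 at 7 days and 180, 130 and 182 at 14 days. It rose by 1.35 ± 0.19 at 3 days and 1.00 ± 0.19 at 7 days (edgeR adjusted p = 0.000223 and 0.00541). Among the RNA helicase sensors, Ddx58 (RIG-I) rose by 1.19 ± 0.19, Ifih1 by 1.17 ± 0.15 and Dhx58, which lacks a signalling domain, by 2.01 ± 0.25 at 3 days (edgeR adjusted p = 0.000606, 0.000137 and 9.89e-05). At 14 days the Ddx58 libraries held 74.6, 70.3 and 76.8 CPM against 74.2, 75.3 and 63.5 CPM in sham and overlapped them. Those of Ifih1 held 116, 122 and 125 CPM against 79.3, 73.7 and 92.8 CPM and lay above them. Whether these fold changes of different genes differ was not tested. Adar, the enzyme that edits double-stranded RNA so that sensors leave it alone, stood at 33.9, 58.3 and 36.5 CPM in sham, 148, 133 and 169 CPM at 3 days, 71.8, 50.7 and 106 CPM at 7 days and 79.9, 74 and 80.8 CPM at 14 days. It rose by 1.81 ± 0.26 at 3 days (edgeR adjusted p = 0.000286) and fell by 0.98 from 3 to 7 days (edgeR adjusted p = 0.0208), the fall not being called without 3-day replicate 1 or 3, or 7-day replicate 1 or 3 (edgeR adjusted p = 0.0513 to 0.112). Its exons overlap those of Chrnb2 on the opposite strand, and those of Eif2ak2 overlap Gm26637 in the same way, so shared reads cannot be told apart without strand.

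The 4 genes of the ISG15 system all rose at 3 days, and 2 of them, Usp18 and Trim25, at 7 and 14 days too. Isg15 (ENSMUSG00000035692, chr4:156199424-156200818, minus strand) encodes the ubiquitin-like protein itself and was among the lowest of the 47 genes in these nuclear libraries. Its counts summed to 7 over the 3 sham libraries and to 94 over the 3-day libraries, a ratio of 9.40 after scaling, with a 95% interval for counting error only of 4.39 to 24. In CPM it stood at 0.151, 0.683 and 0.836 in sham, 1.59, 3.47 and 6.12 at 3 days, 0.417, 1.23 and 1.07 at 7 days and 1.05, 1.86 and 0.887 at 14 days. The 3-day libraries lay above the sham libraries but differed among themselves, replicate 3 being the highest. The edgeR adjusted p at 3 days was 0.0115, and the call ended without 3-day replicate 3 (edgeR adjusted p = 0.0801).

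Usp18 (ENSMUSG00000030107) encodes the protease that removes ISG15 and holds the interferon receptor in check. It stood at 22.6, 18 and 17.3 CPM in sham, 51.5, 51.2 and 74.2 CPM at 3 days, 60.9, 49.3 and 52.2 CPM at 7 days and 34.7, 38.6 and 39.3 CPM at 14 days. The 3-day and 7-day libraries overlapped, and the 14-day libraries lay between them and sham. Usp18 rose by 1.61 ± 0.21, 1.48 ± 0.21 and 0.95 ± 0.21 (edgeR adjusted p = 0.000142, 0.000889 and 0.011). Trim25, a ubiquitin ligase that activates RIG-I, held a similar course at a higher level, with 69.6, 59.4 and 57.7 CPM in sham, 129, 172 and 180 at 3 days, 130, 149 and 167 at 7 days and 112, 95.9 and 118 at 14 days. Its log2 fold change was 1.37 ± 0.18, 1.25 ± 0.18 and 0.80 ± 0.18 (edgeR adjusted p = 0.000135, 0.000865 and 0.011). At 14 days Usp18 was not called without 14-day replicate 3 (edgeR adjusted p = 0.0514), nor Trim25 without 14-day replicate 1 or 3 (edgeR adjusted p = 0.051 to 0.0604). Herc6, the main ISG15 ligase of the mouse, was high already in sham. It stood at 217, 235 and 342 CPM there, 426, 474 and 580 CPM at 3 days, 201, 213 and 374 CPM at 7 days and 278, 236 and 350 CPM at 14 days. Only the 3-day libraries lay above the sham range throughout. It rose by 0.90 ± 0.25 at 3 days (edgeR adjusted p = 0.02), a call that ended without 3-day replicate 2 or 3, or sham replicate 2 or 3 (edgeR adjusted p = 0.0576 to 0.0995). From 3 to 7 days it fell by 0.91 (edgeR adjusted p = 0.0265), which was not called without 3-day replicate 2 or 3, or 7-day replicate 1 or 3 (edgeR adjusted p = 0.0569 to 0.139).

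Of the 3 signalling genes, Stat2 and Ifi35 rose at 3 and 7 days and Nmi at no time. At 7 days Stat2 missed the threshold without 7-day replicate 1 or 4 (edgeR adjusted p = 0.0554 to 0.114), and Ifi35 without 14-day replicate 1 or 3, 7-day replicate 1 or 4, or sham replicate 4 (edgeR adjusted p = 0.0504 to 0.12). Stat2 (ENSMUSG00000040033) encodes the factor that, with IRF9, carries the interferon signal to the ISRE. It stood at 110, 169 and 153 CPM in sham and 606, 552 and 914 CPM at 3 days. It stood at 259, 205 and 346 CPM at 7 days and 180, 162 and 186 CPM at 14 days, and every 3-day library lay above all others. It rose by 2.26 ± 0.24 at 3 days, a 4.8-fold difference (edgeR adjusted p = 2.42e-05), and fell by 1.35 from 3 to 7 days (edgeR adjusted p = 0.00303). Its 14-day values overlapped sham. Ifi35 and Nmi encode partner proteins that bind each other. Ifi35 rose by 1.39 ± 0.30 at 3 days (edgeR adjusted p = 0.00577). Nmi stood at 11.5, 16.4 and 27 CPM in sham, 12.2, 12.1 and 9.75 CPM at 3 days, 11.5, 16.3 and 10.1 CPM at 7 days and 10.2, 14.7 and 12.2 CPM at 14 days. All groups overlapped, and the highest value came from sham replicate 4. The log2 fold change of Nmi at 3 days was -0.68 ± 0.32 (edgeR adjusted p = 0.148), and it was called lower without sham replicate 2 (edgeR adjusted p = 0.0378). Nmi was the only one of the 47 genes with its highest mean in sham.

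The 4 genes for Dtx3l and the PARP proteins, enzymes that attach ADP-ribose to proteins, all rose at 3 days, with a median log2 fold change of 1.05. Parp14 (ENSMUSG00000034422) stood at 280, 202 and 176 CPM in sham, 546, 444 and 700 CPM at 3 days, 412, 357 and 466 CPM at 7 days and 330, 275 and 338 CPM at 14 days. The 3-day and 7-day libraries lay above every sham library, and 14-day replicate 2 lay within the sham range. Parp14 rose by 1.36 ± 0.21 at 3 days and 0.91 ± 0.20 at 7 days (edgeR adjusted p = 0.000443 and 0.0143). Parp12 had overlapping libraries at 3 and 7 days, with log2 fold changes of 1.19 ± 0.27 and 1.25 ± 0.28 (edgeR adjusted p = 0.00782 and 0.0129). Parp9 and Dtx3l, which encode 2 proteins that work as a pair, overlap by 682 bases on opposite strands of chromosome 16, and without strand their reads cannot be told apart there. They rose by 0.91 ± 0.18 and 0.79 ± 0.23 at 3 days (edgeR adjusted p = 0.00341 and 0.0257). At 3 days Parp12 was not called without 3-day replicate 3 (edgeR adjusted p = 0.0553), nor Dtx3l without 3-day replicate 1, 2 or 3, or sham replicate 3 or 4 (edgeR adjusted p = 0.0588 to 0.0993). At 7 days Parp12 was not called without 7-day replicate 1 (edgeR adjusted p = 0.054), nor Parp14 without 7-day replicate 4 (edgeR adjusted p = 0.0611).

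Trim30a and Trim30d, neighbours on chromosome 7, hold the same ISRE core in the same surroundings, as printed above. Trim30a, which restrains inflammatory signalling, had the highest level per gene length of all 47 genes in sham. It stood at 316, 248 and 377 CPM in sham, 506, 389 and 540 CPM at 3 days, 275, 421 and 325 CPM at 7 days and 305, 265 and 291 CPM at 14 days. The 3-day libraries lay just above the sham range, and the later libraries overlapped it. It rose by 0.61 ± 0.20 at 3 days (edgeR adjusted p = 0.039), a call lost in 11 of 21 alternatives, among them the fits without 14-day replicate 1, 2 or 3, 3-day replicate 1 or 3, 7-day replicate 4, or sham replicate 2 or 3 (edgeR adjusted p = 0.0566 to 0.166). Trim30d stood at 150, 82.8 and 102 CPM in sham and 156, 131 and 166 CPM at 3 days, with overlapping groups and a log2 change that measured 0.43 ± 0.21 (edgeR adjusted p = 0.158), and it was called higher without sham replicate 2 (edgeR adjusted p = 0.021). The copies share sequence, so the split of reads between them is uncertain. In the 16 members that hold an ISRE core, the median log2 fold change at 3 days was 1.95 (14 called higher), and it was 1.61 in the 19 members whose promoter holds none (17 called higher). The 12 members with no promoter entry had a median of 1.95 (12 called higher). These are Dhx58, Ifi204, Ifi27l2a, Mx1, Mx2, Oas2, Parp14, Parp9, Rtp4, Tor3a, Usp18 and Zbp1.

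Among the 10 remaining genes 9 rose at 3 days, 8 at 7 days and 5 at 14 days, and 8, 3 and 2 of these calls held whichever single library was left out. Helz2 (ENSMUSG00000027580, chr2:181227615-181242027, minus strand), a nuclear helicase that acts as a coactivator of transcription, showed the largest fold change of the 47 genes. It stood at 4.67, 6.6 and 9.48 CPM in sham and 125, 162 and 207 CPM at 3 days. It stood at 44.2, 29.5 and 63 CPM at 7 days and 38.7, 36.6 and 47 CPM at 14 days, and every injured library lay above every sham library. Helz2 rose 24.4-fold at 3 days, and its log2 fold changes at the 3 times were 4.61 ± 0.33, 2.76 ± 0.32 and 2.59 ± 0.32 (edgeR adjusted p = 1.45e-06, 0.000207 and 0.000213). Lgals3bp, a secreted glycoprotein that binds galectins, was the only gene with its highest mean at 14 days. It stood at 34.8, 36.4 and 46.3 CPM in sham, 144, 124 and 171 CPM at 3 days, 83.3, 64.4 and 121 CPM at 7 days and 144, 223 and 152 CPM at 14 days. The 14-day and 3-day libraries overlapped, both groups lay above the 7-day libraries, and all lay above sham. It rose by 1.91 ± 0.25, 1.20 ± 0.24 and 2.15 ± 0.25 against sham (edgeR adjusted p = 0.000137, 0.00866 and 0.000117), and its log2 change from 7 to 14 days, 0.95 ± 0.24, did not pass the threshold (edgeR adjusted p = 0.0514), though it did without 7-day replicate 4, or sham replicate 2 or 4 (edgeR adjusted p = 0.0131 to 0.0283). The sums of monocyte-derived and of endothelial markers, given above, were likewise higher at 3 and 14 days than at 7 days. From 7 to 14 days 1 of the 7 tested monocyte-derived markers was called higher. The part of these cells in the course of Lgals3bp was not tested.

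The other genes of this set had smaller fold changes than Helz2. Sp100, a component of nuclear bodies, was tight in sham at 102, 105 and 106 CPM and reached 292, 261 and 400 CPM at 3 days, 192, 214 and 249 CPM at 7 days and 176, 153 and 178 CPM at 14 days. It rose by 1.61 ± 0.18, 1.07 ± 0.17 and 0.70 ± 0.17 (edgeR adjusted p = 3.33e-05, 0.0024 and 0.0203), the last call ending without 14-day replicate 1 or 3 (edgeR adjusted p = 0.0828 to 0.0869). Tor3a, an ATPase of the endoplasmic reticulum, had overlapping levels at all 3 times after injury, with 46.4, 51.9 and 39.6 CPM in sham, 79.6, 69.6 and 78.6 at 3 days, 91, 65.8 and 92.4 at 7 days and 72.9, 79.2 and 71 at 14 days. Its log2 fold change was 0.72 ± 0.18, 0.85 ± 0.18 and 0.69 ± 0.18 (edgeR adjusted p = 0.0125, 0.0109 and 0.0256), and these calls ended without 3-day replicate 3 (edgeR adjusted p = 0.0569), without 7-day replicate 4 (edgeR adjusted p = 0.0506) and without 14-day replicate 1, 2 or 3 (edgeR adjusted p = 0.0764 to 0.0969) in turn. Rtp4, a chaperone of receptors, and Xaf1, which promotes cell death, rose by 1.84 ± 0.26 and 1.11 ± 0.19 at 3 days (edgeR adjusted p = 0.000228 and 0.00103). Ifi27l2a, a small mitochondrial protein, rose by 2.42 ± 0.51 from a sham level of 0.754, 3.87 and 1.67 CPM (edgeR adjusted p = 0.00457), and by 3.22 without sham replicate 3. Phf11d rose by 1.43 ± 0.22 at 3 days (edgeR adjusted p = 0.000556). Its neighbour Phf11b stood at 9.65, 17.3 and 5.85 CPM in sham, 17, 18.6 and 28 CPM at 3 days, 23.4, 26.3 and 23.3 CPM at 7 days and 12.6, 14 and 17.1 CPM at 14 days. The 3-day libraries of Phf11b overlapped sham through sham replicate 3, and the 7-day libraries did not. Its log2 fold change was 0.96 ± 0.33 at 3 days and 1.15 ± 0.33 at 7 days (edgeR adjusted p = 0.0514 and 0.0412), and the latter call was lost in 14 of 21 alternatives, among them the fits without 14-day replicate 1, 2 or 3, 3-day replicate 1 or 2, 7-day replicate 1, 3 or 4, or sham replicate 2 or 4 (edgeR adjusted p = 0.0576 to 0.0923). At 3 days it was called without sham replicate 3 (edgeR adjusted p = 0.0082).

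Levels of different genes were compared on the deposited RPKM, which are scaled by gene length. Over the 47 genes the median RPKM per library was 7.26 to 9.67 in sham, 22.5 to 28.4 at 3 days, 14.3 to 20.3 at 7 days and 11.3 to 14.1 at 14 days, and these ranges did not overlap. In sham Trim30a was first (73.2 ± 8.57 RPKM, mean ± SD, n = 3) and Stat2 the next (32.1 ± 8.95 RPKM). At 3 days Stat2 was first (156 ± 41.6 RPKM), ahead of Trim30a (116 ± 18.7 RPKM) and Oas2 (93.4 ± 31.1 RPKM), and the SDs of neighbours in this order overlapped. Genes with large fold changes were low in sham, Helz2 going from 0.578 ± 0.181 to 14.2 ± 3.29 RPKM and Rsad2 from 0.52 ± 0.101 to 11.8 ± 3.65 RPKM. On the log2(RPKM + 1) scale, where the added 1 shrinks changes of low genes, limma gave smaller 3-day changes than edgeR: 3.25 for Helz2, 3.04 for Rsad2, 2.84 for Oasl1, 1.94 for Oas3, 1.69 for Isg15 and 1.61 for Ifi44. All 6 were still called (limma adjusted p = 1.92e-05, 3.33e-05, 3.61e-05, 0.00036, 0.00882 and 0.00323). At 14 days Lgals3bp had moved from rank 12 in sham to rank 2 and Ifitm3 from rank 16 to rank 3. The plot of levels per gene length shows these shifts.

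**Figure D4:**
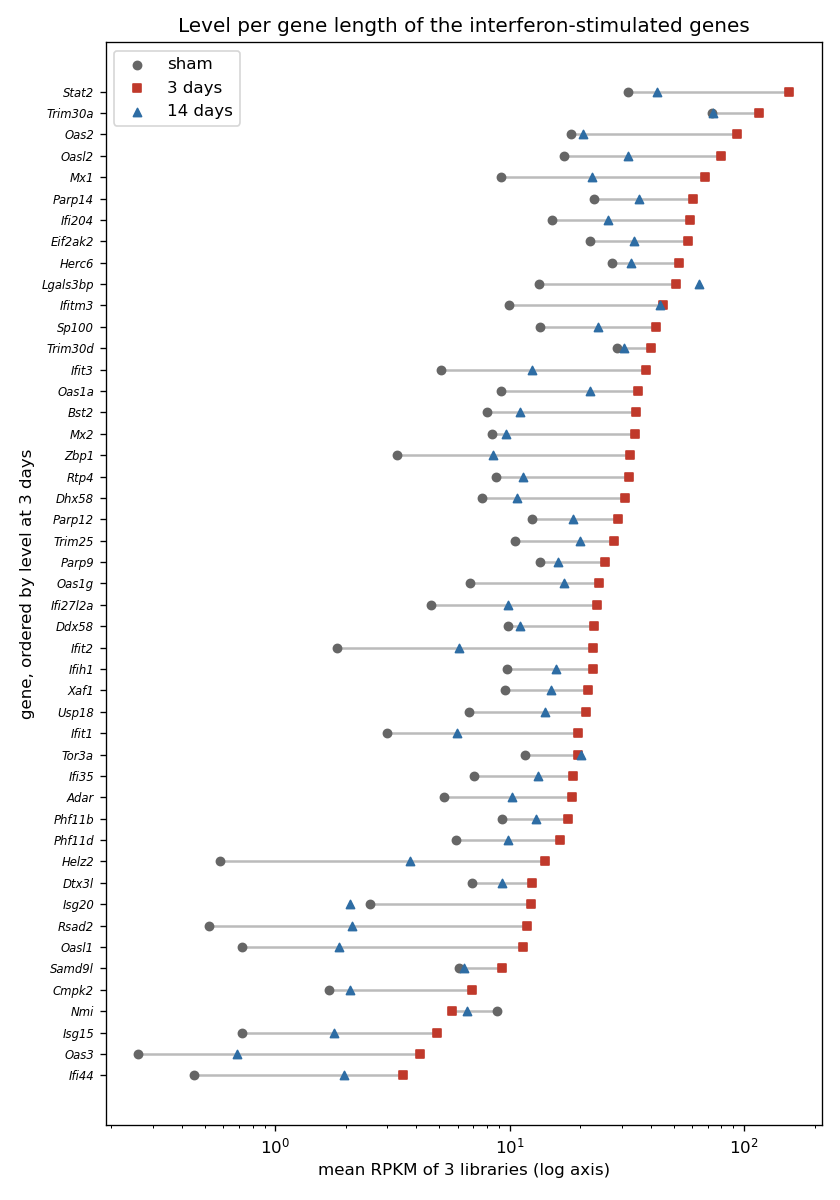
Mean RPKM of 3 libraries (x axis, logarithmic) of the 47 genes (y axis, ordered by the 3-day mean) in sham (circles), at 3 days (squares) and at 14 days (triangles), with a line from sham to 3 days. The squares lie to the right of the circles for every gene except Nmi, and Lgals3bp ranks 2 among the triangles after ranking 12 among the circles.

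Of the 47 genes, 20 lie within 200 kb of another of them, in 8 clusters on the 15 chromosomes that carry members. Neighbours often differed in their calls: Rsad2 was called at 3, 7 and 14 days and Cmpk2 at 3 days, Ifit2 and Ifit3 at all times and Ifit1 at 3 days, Mx1 at all times and Mx2 at 3 and 7 days. Without sham replicate 4, Ifit1 was called at 7 and 14 days too, and the 14-day call of Ifit3 ended. Whether neighbours differ from each other in their change was not tested.

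The rest of the pathway, from lists of other genes, was tested in the same fit. Of 20 interferon genes (Ifnb1, Ifnab, Ifnk, Ifne, 13 interferon alpha genes, Ifng, Ifnl2 and Ifnl3), 14 had no count in any library and 3 more held 1 to 3 counts in all. A count of 0 allows up to 0.281 CPM in the deepest library and 0.749 CPM in the shallowest, for counting error only. Ifnb1 held 4 counts, 1 in the 3-day and 3 in the 7-day libraries, Ifnab 10 counts, 9 of them at 3 days, and Ifng 2 counts. At this depth no change of these genes was detectable. Ifnk alone passed the filter, with 126 counts in all, and its log2 fold change at 3 days was -0.12 ± 0.51 (edgeR adjusted p = 0.895).

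Of 8 receptor and signalling genes 3 were higher than sham at 3 days, and edgeR called none at 7 or 14 days, where 2 and 1 had an unadjusted p under 0.05. For this list and those below, the shares of all tested genes called higher were 10.9%, 4.61% and 5.02% at 3, 7 and 14 days. None called among 8 genes lies near the 2 later shares. DESeq2 called 1 at 7 days and 0 at 14 days, and limma called 2 at 3 days and 0 at the later times on either scale. Irf9 rose by 0.71 ± 0.15 and Jak2, a kinase of the interferon gamma receptor, by 0.49 ± 0.15 at 3 days (edgeR adjusted p = 0.00547 and 0.0362), and Jak2 was not called without 14-day replicate 1, 2 or 3, 3-day replicate 1, 2 or 3, 7-day replicate 4, or sham replicate 3 or 4 (edgeR adjusted p = 0.053 to 0.141). The other gene called was Tyk2, a call that ended without 14-day replicate 1, 2 or 3, 3-day replicate 1, 2 or 3, 7-day replicate 1, or sham replicate 2 or 4 (edgeR adjusted p = 0.0507 to 0.125). The receptor genes Ifnar1 and Ifnar2 were not called by edgeR at any time. Ifnar1 stood at 170, 157 and 153 CPM in sham, 224, 231 and 173 CPM at 3 days and 194, 247 and 241 CPM at 7 days, so that its 3-day and 7-day libraries lay above sham. At 7 days its log2 change was 0.51 ± 0.16 (edgeR adjusted p = 0.0579), and it was the gene that DESeq2 called. It was also called without sham replicate 2 (edgeR adjusted p = 0.0467). Of 5 interferon regulatory factors, Irf7 and Irf8 were higher than sham at all 3 times. Irf7, which amplifies interferon production, stood at 9.19, 9.33 and 5.02 CPM in sham, 54.6, 46.4 and 55.3 CPM at 3 days, 39.9, 29 and 42.1 CPM at 7 days and 17.3, 19.6 and 19.3 CPM at 14 days. Every injured library lay above sham and every 14-day library below the earlier ones. Like Ifit3 and Ifi204, it fell from 7 to 14 days, by 0.98 (edgeR adjusted p = 0.0451), and its change from 3 to 7 days did not pass the threshold (edgeR adjusted p = 0.156). The fall was not called without 14-day replicate 1, 2 or 3, 3-day replicate 1, 2 or 3, 7-day replicate 1, 3 or 4, or sham replicate 3 (edgeR adjusted p = 0.0548 to 0.216). Irf8, a factor of macrophage identity, rose by 0.65 ± 0.20, 0.90 ± 0.20 and 0.77 ± 0.20 (edgeR adjusted p = 0.0327, 0.0138 and 0.0243). These calls ended without 14-day replicate 1, 2 or 3, 3-day replicate 1, 2 or 3, or sham replicate 2 or 4 (edgeR adjusted p = 0.0507 to 0.116), without 7-day replicate 4 (edgeR adjusted p = 0.0549) and without 14-day replicate 1, 2 or 3 (edgeR adjusted p = 0.0654 to 0.082) in turn.

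Of 12 tested sensors and adaptors 1 rose at 3 days, a share of 8.33% against 10.9% of all tested genes. Ikbke, a kinase that activates interferon regulatory factors, stood at 4.82, 6.83 and 9.48 CPM in sham, 32.6, 39.6 and 33.4 CPM at 3 days, 50.3, 70.4 and 89.9 CPM at 7 days and 44.1, 35.9 and 45 CPM at 14 days. It rose by 2.35 ± 0.28 at 3 days and 3.35 ± 0.28 at 7 days against sham (edgeR adjusted p = 6.59e-05 and 2.13e-05). From 3 to 7 days, when none of the 47 genes rose, it rose by 0.99 ± 0.25 (edgeR adjusted p = 0.0181), which was not called without 3-day replicate 1 or 3, or 7-day replicate 4 (edgeR adjusted p = 0.0637 to 0.0908). Tlr3, a receptor for double-stranded RNA, was lower than sham at 7 and 14 days, with log2 fold changes of -0.89 ± 0.26 and -1.12 ± 0.26 (edgeR adjusted p = 0.0422 and 0.0141). Its sham libraries held 128, 107 and 241 CPM, the highest being replicate 4, and the calls ended without 14-day replicate 1, 2 or 3, 3-day replicate 1 or 3, 7-day replicate 1, 3 or 4, or sham replicate 4 (edgeR adjusted p = 0.0521 to 0.147) and without 14-day replicate 1 or 3 (edgeR adjusted p = 0.0644 to 0.0708) in turn. Of 4 tested brakes on signalling Socs3 rose at 3 days, by 2.92 ± 0.52 (edgeR adjusted p = 0.00155), with 2.11, 2.73 and 0.557 CPM in sham and 17.7, 17.2 and 8.22 CPM at 3 days, and fell by 1.59 from 3 to 7 days (edgeR adjusted p = 0.0369), a fall not called without 14-day replicate 3, 3-day replicate 1, 2 or 3, or 7-day replicate 1 or 3 (edgeR adjusted p = 0.052 to 0.134). Of 5 tested targets known mainly from interferon gamma, 3 rose at 3 days: Irgm1 by 1.28 ± 0.23, Iigp1 by 2.17 ± 0.47 (edgeR adjusted p = 0.00175 and 0.00516) and Gbp2, whose call ended without 14-day replicate 1, 2 or 3, 3-day replicate 1, 2 or 3, or sham replicate 2 or 3 (edgeR adjusted p = 0.0506 to 0.154). Several genes of this last list also respond to type I interferon.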

How the data were processed

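Polyadenylated RNA of nuclei captured by GFP was amplified with a single-primer isothermal kit before library preparation, per the labels' protocols, so counts include amplification noise. The authors deposited whole-number read counts per gene and RPKM values in a table with Ensembl identifiers. The submitters' processing notes name GRCm38, mm10 and, as a tool, featureCounts 1.4.6-p3; which aligner and strand setting were used, and how multi-mapping reads were treated, is not given in those sources. The deposited RPKM equal count divided by gene length and library total, to a relative difference of 5.7e-15. Counts were tested with edgeR 4.0.16 in R 4.3.3: genes were filtered with filterByExpr, scaled by TMM, and the quasi-likelihood test was fitted to all 12 libraries in 4 groups, with Benjamini-Hochberg adjustment over 18451 genes and a threshold of 0.05. SE was taken as the absolute log2 fold change over the root of the F statistic. CPM are TMM-scaled, except sums of markers. The fit was also run on simulated counts with the same spread for every gene, and the outcome is not used here. Alternatives were other size factors, no or a stricter filter, DESeq2 1.42.0, limma 3.58.1 on log2(RPKM + 1) and log2(RPKM + 0.1), the groups compared alone, a replicate block, a Y-linked covariate added after seeing the data, and each library left out.

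The members and lists were chosen with earlier results of these data known, and 2 genes of the lists are not reported here. In each role, the gene with the highest mean RPKM and that with the smallest adjusted p over 4 groups were named, with those not called at 3 days, up to 8 called at 14 days and those called from 7 to 14 days; other members were named after their values had been seen. Total counts of 4003480 to 10670804 limit low genes such as Isg15, and intervals and floors cover counting error only. Promoters are from RefSeq and positions from GENCODE, both on GRCm38.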

Additional observations from a re-analysis of the deposited data

Results flagged for a closer look

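The effects of injury against sham differed between times for some of the 47 genes, by edgeR's test of the difference itself. Between 7 and 3 days 22 genes had different effects, between 14 and 3 days 28, and between 14 and 7 days 3, all with the smaller effect at the later time. The effects share the sham libraries, so each such difference equals the direct comparison of the injured groups given above. Groups of 3 libraries were not screened for outlying samples.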

How the results depend on the processing

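Counts below are of the 47 genes called in either direction. Leaving out 1 library gave 37 to 43 called genes at 3 days, 18 to 32 at 7 days and 6 to 18 at 14 days against sham, 8 to 25 from 3 to 7 days, 0 to 12 from 7 to 14 days and 18 to 33 from 3 to 14 days. A fit of only the groups compared gave 39 at 3 days, 12 at 7 days and 8 at 14 days against sham. It gave 24 from 3 to 7 days, 13 from 7 to 14 days and 41 from 3 to 14 days, where the main fit gave 28. From 3 to 7 days the Y-linked covariate, chosen after seeing the data, gave 13, and limma on log2(RPKM + 0.1) 14. From 7 to 14 days no filter gave 13, DESeq2 10 and limma 0 on either scale. The cause of these shifts was not tested. The replicate block gave 7 from 7 to 14 days, where the main fit gave 3, and 43, 26, 15, 21 and 26 in the comparisons of 3, 7 and 14 days with sham, 7 with 3 and 14 with 3 days. The labels do not say that a number marks a shared animal or day, and over 13 same-numbered pairs of libraries deviations correlated at -0.298 to 0.0693, so the numbers were not treated as pairing. The RPKM carry no TMM scaling, and on log2(RPKM + 0.1) the median of all genes shifted by 0.18 at 14 days against sham and by 0.13 from 7 to 14 days, relative to the main fit. Of 3377 alternative values of 161 named fold changes, 2905 kept direction and call, 444 lost the call, 26 gained it and 2 changed sign, neither called: Ifitm3 at 7 days without sham replicate 2 (-0.01, range -0.01 to 1.34 over libraries left out) and Ifnk at 3 days without 3-day replicate 2 (0.16, range -0.4 to 0.16). Depth limits Isg15, Ifi44 and the interferon genes, whose counts are few.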
